A study of Mus musculus with 11 samples.

Results

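The genes described here are 10 genes of macrophage scavenging and tissue residence, read by symbol from the table of gene counts, out of 25677 genes listed. They are Marco, Msr1, Cd163, Cd5l, Mrc1, Clec10a, Timd4, Vsig4, F13a1 and Adgre1. The choice was in part made on the data: Marco and Cd5l were taken because they were nearly absent from the control kidneys, and F13a1 and Clec10a because they were lower in the DNase I-treated than in the untreated MRL/lpr kidneys. Those contrasts of those 4 genes are therefore given as a description, with no test.

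Kidney RNA was sequenced from female mice that were 21 weeks old, and each library came from a different mouse. The Ctr group held 3 C57BL/6J mice. The Lpr group held 4 MRL/lpr mice, whose lpr mutation disrupts Fas and in which a nephritis like that of lupus arises, and the DNase group held 4 MRL/lpr mice that were injected with DNase I into the peritoneum every day from week 17. DNase I cuts extracellular DNA. The MRL/lpr groups and Ctr are of different strains, so in any comparison with Ctr the strain and the disease cannot be told apart.

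Tissue macrophages clear dead cells, debris and modified proteins by receptors that bind many ligands. The class A scavenger receptors bind modified lipoproteins and microbes, the scavenger receptors with cysteine-rich domains bind ligands such as haptoglobin-hemoglobin complexes, and lectin receptors bind sugars on glycoproteins. Part of these genes mark macrophages that reside in a tissue for a long time, whereas others can be induced in cells that enter an inflamed tissue, and the kidney holds both kinds in nephritis. In whole-kidney RNA, fewer cells of a type and less RNA per cell cannot be told apart.

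The reads counted on genes numbered 33469858 to 38460873 in each kidney. Levels are given as CPM, the count relative to the library total per 1000000 reads, after TMM scaling, and levels of different genes are compared only as FPKM, which also divides by gene length. A group with at most 3 counts in every kidney is treated as being at the floor, a limit that covers counting error only. The 7 markers of tubule and podocyte were high in every kidney, with a summed level between 8680 and 14731 CPM. Lpr replicate 3 stood apart from the others: the slope of its log2 CPM deviations on log2 gene length was -0.43, against -0.04 to 0.08 in the other 10 kidneys. Where leaving it out moved a value described here by much, the value without it is given too.

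The bases upstream of the start are shown for Marco, Cd5l and F13a1, the members that were chosen for a contrast between the groups and for which the reference tables hold a window. The windows are the 250 bases before the start annotated by RefSeq on GRCm38.p6, written 5′ to 3′ in the direction of transcription. Capitals mark GAGGAA or its reverse complement, letters found in sites bound by PU.1, a macrophage factor of the ETS family. Other letters that ETS factors bind were not marked.
Marco, chr1:120505025-120505274, minus strand: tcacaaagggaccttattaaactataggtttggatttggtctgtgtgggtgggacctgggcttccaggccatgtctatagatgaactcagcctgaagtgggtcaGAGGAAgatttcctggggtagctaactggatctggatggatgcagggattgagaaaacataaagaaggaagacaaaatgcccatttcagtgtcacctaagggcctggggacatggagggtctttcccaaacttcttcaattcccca
Cd5l, chr3:87357631-87357880, plus strand: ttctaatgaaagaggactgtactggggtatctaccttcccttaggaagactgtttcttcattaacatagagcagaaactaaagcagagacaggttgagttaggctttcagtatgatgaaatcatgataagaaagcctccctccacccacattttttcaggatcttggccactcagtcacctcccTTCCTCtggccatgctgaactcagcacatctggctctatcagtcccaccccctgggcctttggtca
F13a1, chr13:37050245-37050494, minus strand, the more upstream of 2 starts: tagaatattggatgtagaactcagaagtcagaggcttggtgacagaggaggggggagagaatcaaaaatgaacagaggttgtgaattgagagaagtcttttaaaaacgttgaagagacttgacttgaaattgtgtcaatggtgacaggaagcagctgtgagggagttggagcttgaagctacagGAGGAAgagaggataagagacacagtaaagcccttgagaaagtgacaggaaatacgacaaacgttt
The match lay between bases -146 and -141 from the start in Marco and between -66 and -61 in both Cd5l and F13a1. The 7 members with a window had 8 windows, since F13a1 has 2, and 5 of the 8 held these letters on either strand, as did 23.3% of 32851 upstream windows of the same length in all genes. The window of the other F13a1 start held no match, and 75 of its bases lay in annotated exons, as did 22 in that of Mrc1. For Cd163 and Timd4, also without a match, the bases after the start were not found in a protein-coding transcript of the gene. The longer GAGGAAGT, which contains GAGGAA, and the motifs TGANTCA, TTGCNNAA and TATAAA were in no window of a member, and in 2.44%, 6.75%, 9.56% and 12.4% of all windows. The 6-letter motif was searched after the 8-letter motif had given no match. These matches are a description of letters and not of binding.

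Levels per gene length put Adgre1, the F4/80 antigen of mouse macrophages, at the top in every group. Its FPKM was 1.61 ± 0.730 (SD, n = 3) in Ctr, 14.3 ± 6.99 (SD, n = 4) in the Lpr kidneys and 11.7 ± 1.31 (SD, n = 4) in the DNase kidneys. Mrc1, the mannose receptor, came next in each group, at 1.01 ± 0.370, 7.54 ± 3.27 and 4.25 ± 1.40 FPKM. The ranges of these neighbours overlapped in Ctr and Lpr and were apart in DNase. In Ctr, Clec10a and F13a1 followed with 1.00 and 0.885 FPKM on average, and their ranges overlapped with that of Mrc1. A gap without overlap then separated F13a1 from Cd163 at 0.213 FPKM, and Timd4, Msr1, Vsig4, Marco and Cd5l followed, from 0.0786 FPKM down to 0.00859 FPKM. In DNase, Cd5l at 2.68 FPKM and Marco at 1.87 FPKM stood above Clec10a at 1.45 FPKM and F13a1 at 0.460 FPKM on average, although neighbours in this order overlapped. Cd163 and Vsig4 were the last in Lpr and DNase.

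**Figure D1:**
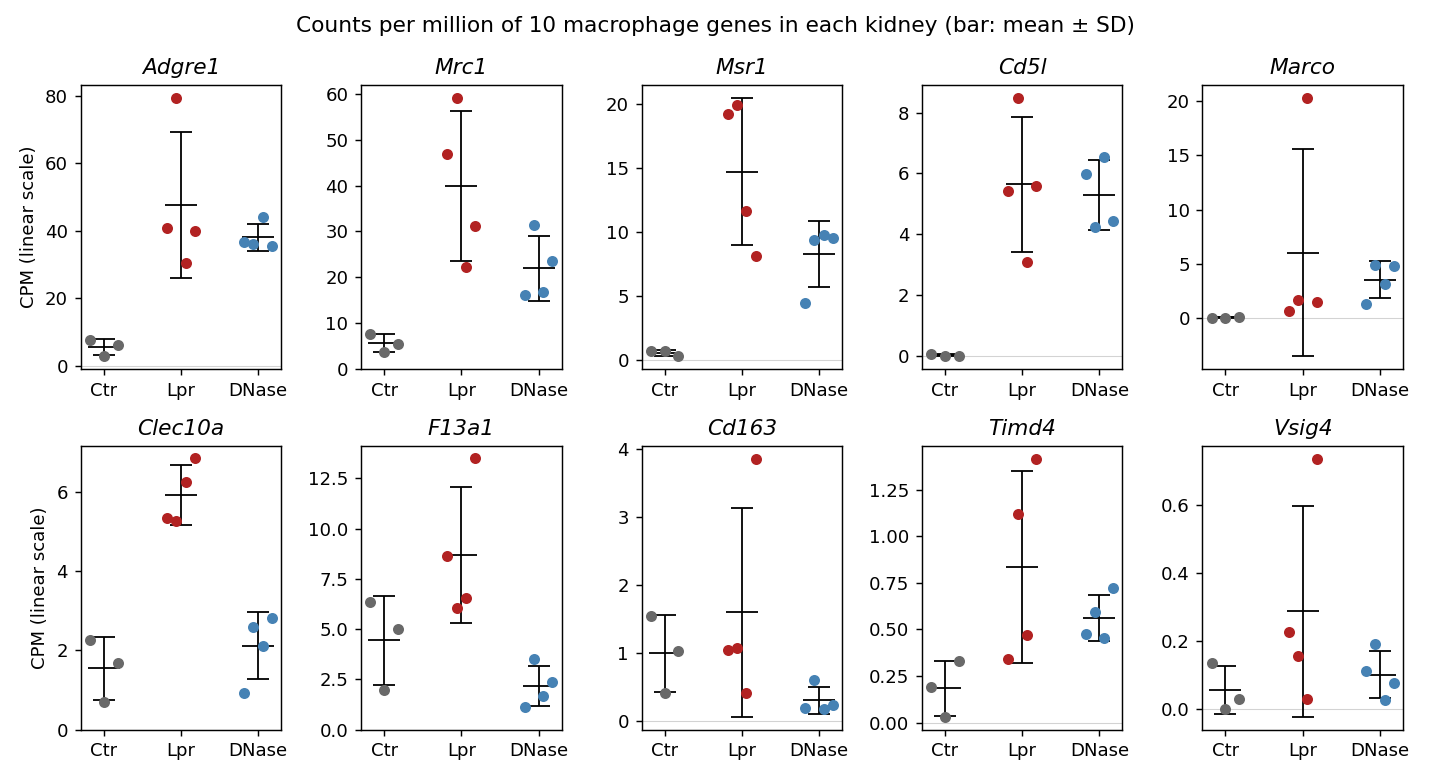
CPM (linear vertical axis, a separate scale for each gene) of the 10 genes in 3 Ctr, 4 Lpr and 4 DNase kidneys, with a point for each kidney and bars for the mean ± SD; bars that reach below 0 are large SDs. Adgre1, Mrc1, Msr1 and Cd5l were higher in every MRL/lpr kidney than in every Ctr kidney, and Marco in Lpr rested on replicate 3 at 20.3 CPM.

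In comparison to the controls, 3 of the 8 members whose contrast was not used in the choice were called higher in Lpr, and none was called lower. A gene was called at an adjusted p under 0.05 from edgeR's quasi-likelihood test and an absolute log2 fold change above 2. Of all 16074 genes tested, 4.65% were called higher, 1.13% lower and 5.78% in either direction. Marco and Cd5l, which the choice took for their absence from Ctr, would bring the count to 5 of 10. Vsig4 did not pass the filter on low counts and was tested in no comparison. Over the 7 members tested whose contrast was not used, the median log2 fold change was 2.17, beside 0.03 over all genes tested. Of the 8 members, 5 did not overlap between the groups and were higher in Lpr, where 14.2% of all genes were higher without overlap.

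Msr1 is a class A scavenger receptor that takes up modified lipoproteins, and lies on chromosome 8 of GRCm38.p6, from 39543232 to 39642750 on the minus strand. Its CPM was 0.728, 0.733 and 0.330 in the Ctr kidneys, 19.2, 19.9, 11.6 and 8.16 in Lpr, and 4.46, 9.37, 9.76 and 9.58 in DNase. The lowest MRL/lpr kidney, DNase replicate 1, was thus above every Ctr kidney, and the Lpr and DNase kidneys overlapped through Lpr replicate 4. Msr1 rose in Lpr by 4.63 on the log2 scale (SE 0.468, adjusted p = 0.000715 from edgeR), a 24.7-fold difference of the mean CPM. It also rose in DNase against Ctr, by 3.79 (SE 0.388, adjusted p = 0.000141 from edgeR). Its log2 fold change of DNase against Lpr was -0.83 with a 95% interval from -1.58 to -0.08 and was not called (adjusted p = 0.854 from edgeR).

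Marco, the other class A scavenger receptor here, is the receptor on macrophages with a collagenous structure and lies on chromosome 1, from 120474538 to 120505024. The Ctr kidneys held 0, 0 and 2 counts. Its CPM was 0.594, 1.67, 20.3 and 1.44 in Lpr and 1.25, 4.88, 3.08 and 4.82 in DNase. Every MRL/lpr kidney therefore held more than any Ctr kidney, and the level was at least 67.7-fold higher in Lpr and at least 39.5-fold higher in DNase on average, against a floor of 3 counts per library. Of the Lpr kidneys, replicate 3 held 688 counts and the others 21 to 64, and without replicate 3 the bound in Lpr was 13.9-fold, below that in DNase. DNase and Lpr were not used against each other in choosing Marco: the log2 fold change was -0.80 with a 95% interval from -2.99 to 1.40 (adjusted p = 0.876 from edgeR). Without Lpr replicate 3 it was 1.50 (adjusted p = 0.413 from edgeR), so the direction rested on that library.

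Cd5l, a soluble protein with cysteine-rich scavenger domains that macrophages secrete, lies on chromosome 3, from 87357881 to 87371074. The Ctr kidneys held 2, 0 and 0 counts. Its CPM was 5.43, 8.49, 3.07 and 5.58 in Lpr and 5.97, 4.23, 6.56 and 4.43 in DNase. The MRL/lpr kidneys lay close to each other, at least 63.5-fold above Ctr in Lpr and at least 59.6-fold in DNase, and each was above every Ctr kidney. Between DNase and Lpr the log2 fold change was -0.09 with a 95% interval from -0.77 to 0.58 (adjusted p = 0.949 from edgeR). Within Lpr, replicate 3 had the highest Marco level and the lowest Cd5l level.

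Cd163, the receptor that takes up haptoglobin-hemoglobin complexes and a marker of resident macrophages, lies on chromosome 6, from 124304636 to 124330529. Its CPM was 1.54, 0.414 and 1.02 in Ctr, 1.05, 1.07, 0.414 and 3.85 in Lpr, and 0.195, 0.596, 0.177 and 0.232 in DNase. The Lpr kidneys overlapped with those of Ctr, and 3 of the 4 DNase kidneys were below every other kidney. The log2 fold change of Lpr against Ctr was 0.69 (SE 0.745, adjusted p = 0.662 from edgeR) and became -0.22 without Lpr replicate 4. In DNase it was lower than in Lpr by a log2 fold change of -2.40 with a 95% interval from -3.98 to -0.82, which was not called (adjusted p = 0.82 from edgeR). Without Lpr replicate 4 that value was -1.49. Against Ctr the log2 fold change in DNase was -1.72 (SE 0.557, adjusted p = 0.0559 from edgeR). It was called without Ctr replicate 2 at -2.09 (adjusted p = 0.0215) and without DNase replicate 2 at -2.29 (adjusted p = 0.0213). Without Ctr replicate 1 it was weaker, at -1.26 (adjusted p = 0.223 from edgeR).

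Mrc1, a lectin receptor for mannose and fucose, lies on chromosome 2, from 14229414 to 14332023. Its CPM was 7.60, 3.70 and 5.36 in Ctr, 46.8, 59.2, 22.3 and 31.2 in Lpr, and 16.2, 31.3, 16.7 and 23.5 in DNase. No MRL/lpr kidney reached down to the Ctr range, and the Lpr and DNase kidneys overlapped. Mrc1 rose in Lpr by 2.85 on the log2 scale (SE 0.403, adjusted p = 0.00296 from edgeR). In DNase against Ctr the log2 fold change was 1.98 (SE 0.305, adjusted p = 0.00151 from edgeR), just under the fold threshold, and it was called at 2.26, 2.10 or 2.09 when Ctr replicate 1, DNase replicate 1 or DNase replicate 3 was left out. The log2 fold change of DNase against Lpr was -0.86 with a 95% interval from -1.58 to -0.15 and was not called (adjusted p = 0.849 from edgeR).

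Clec10a, a lectin receptor for galactose and N-acetylgalactosamine, lies on chromosome 11, from 70166623 to 70170836. Its CPM was 2.26, 0.701 and 1.68 in Ctr, 5.34, 5.26, 6.23 and 6.85 in Lpr, and 0.920, 2.60, 2.12 and 2.81 in DNase. The Lpr kidneys were tightly grouped and above all others, and the DNase kidneys overlapped with Ctr. The log2 fold change of Lpr against Ctr was 1.94 (SE 0.394, adjusted p = 0.0156 from edgeR), which passed the p but not the fold threshold, in a comparison that contains the Lpr kidneys the choice looked at. It was called at 2.32 without Ctr replicate 1 and the adjusted p rose to 0.0628 without Ctr replicate 3. DNase against Lpr, on which the gene was chosen, had a log2 fold change of -1.49 as a description. Against Ctr the log2 fold change in DNase was 0.44 with a 95% interval from -0.60 to 1.48 (adjusted p = 0.558 from edgeR). The transcript of Clec10a is 93.9% identical to that of Mgl2 over 830 bases, and how reads that fit both were counted is not given in the sources used here. Mgl2 had another pattern, with 5.99, 4.62 and 6.59 CPM in Ctr, 41.8, 3.28, 12.5 and 2.10 CPM in Lpr and 2.31, 3.71, 1.24 and 3.19 CPM in DNase.

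Timd4, a receptor for phosphatidylserine on dying cells, lies on chromosome 11, from 46810786 to 46844333, and was measured by few reads. Its CPM was 0.189, 0.0319 and 0.330 in Ctr, 0.339, 1.12, 0.473 and 1.42 in Lpr, and 0.474, 0.596, 0.454 and 0.721 in DNase, which are between 1 and 50 counts per kidney. Every MRL/lpr kidney was above every Ctr kidney, by little for Lpr replicate 1. The log2 fold change of Lpr against Ctr was 2.17 (SE 0.763, adjusted p = 0.129 from edgeR) and was not called. DESeq2 gave an adjusted p of 0.0436 and the edgeR fit over all 3 groups one of 0.0448. Without Ctr replicate 2 the log2 fold change was 1.70, and without Ctr replicate 1 the adjusted p from edgeR rose to 0.335. For DNase against Ctr the log2 fold change was 1.58 (SE 0.559, adjusted p = 0.0759 from edgeR), and without Ctr replicate 3 it was called at 2.25 (adjusted p = 0.0441). Without Ctr replicate 2 it was 1.11, and without Ctr replicate 1 the adjusted p from edgeR rose to 0.180. DNase and Lpr differed by a log2 fold change of -0.58 with a 95% interval from -1.63 to 0.47. Vsig4, a complement receptor of resident macrophages on the X chromosome, from 96247201 to 96293438, had 0 to 5 counts in the Ctr, 1 to 26 in the Lpr and 1 to 7 in the DNase kidneys, too few to be tested. Fitted without the filter, its log2 fold change was 2.26 in Lpr against Ctr (adjusted p = 0.338 from edgeR). It was -1.50 in DNase against Lpr (adjusted p = 0.742) and 0.76 in DNase against Ctr (adjusted p = 0.644).

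F13a1, the A subunit of coagulation factor XIII, which cross-links fibrin and is made by monocytes and resident macrophages, lies on chromosome 13, from 36867178 to 37050244. Its exons overlap with the antisense gene Gm30489, which is not in the table used here, and whether the reads were counted by strand is not given in the sources used here. Its CPM was 6.34, 1.98 and 5.00 in Ctr, 8.62, 6.07, 6.56 and 13.5 in Lpr, and 1.14, 3.50, 1.69 and 2.37 in DNase. Every DNase kidney was below every Lpr kidney, and Ctr replicate 2 lay within the DNase range. DNase against Lpr had a log2 fold change of -2.00, a description because the gene was chosen on it. Against Ctr the log2 fold changes were 0.97 in Lpr (SE 0.436, adjusted p = 0.244 from edgeR) and -1.03 in DNase (SE 0.446, adjusted p = 0.14 from edgeR), neither of which was called, and both contain kidneys the choice looked at.

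Adgre1 lies on chromosome 17, from 57358581 to 57483529. Its CPM was 7.66, 2.87 and 6.14 in Ctr, 40.9, 79.4, 30.3 and 40.0 in Lpr, and 36.6, 36.1, 44.0 and 35.5 in DNase. All MRL/lpr kidneys were well above Ctr, and the DNase kidneys lay inside the wider Lpr range. It rose by 3.11 in Lpr (SE 0.453, adjusted p = 0.0034 from edgeR) and by 2.77 in DNase (SE 0.280, adjusted p = 0.00013 from edgeR) on the log2 scale, both against Ctr. The log2 fold change of DNase against Lpr was -0.33 with a 95% interval from -0.93 to 0.27, and it was 0.02 without Lpr replicate 2.

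**Figure D2:**
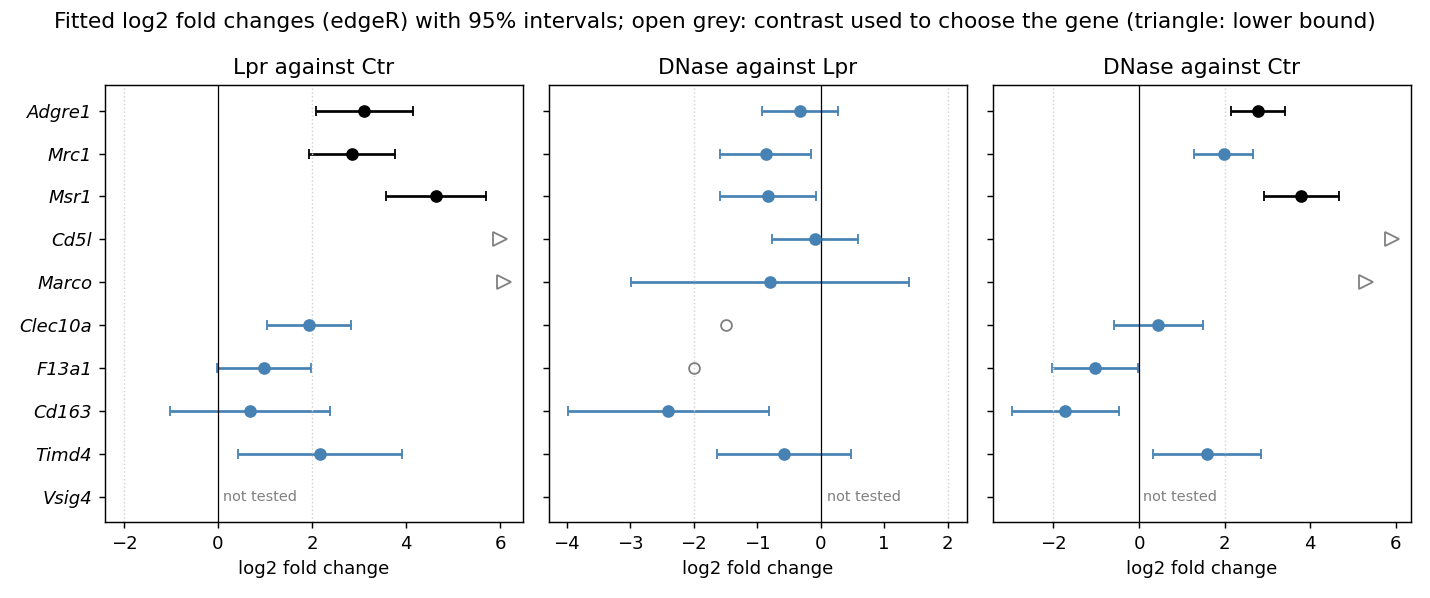
Log2 fold changes (horizontal axes, a different range in each panel) from edgeR in the 3 comparisons, with 95% intervals; black marks called values, blue values not called, open grey contrasts used to choose the gene and grey triangles lower bounds. Msr1, Mrc1 and Adgre1 were called in Lpr against Ctr, and no member was called in DNase against Lpr.

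In comparison to untreated MRL/lpr mice, no member was called in the DNase I-treated mice, beside 0% of the 15832 genes tested by edgeR. Each of the 8 members whose contrast was not used in the choice had a lower mean CPM in DNase, as had 52.3% of all genes tested. For Marco this turned around without Lpr replicate 3. Without Lpr replicate 2 the fitted log2 fold changes of Cd5l and Adgre1 were above 0, at 0.16 and 0.02. Of these 8 members, 3 had an unadjusted p under 0.05 (Msr1, Mrc1 and Cd163), beside 5.6% of all genes, and each of these overlapped between the groups. F13a1 and Clec10a were the members without overlap, where 1.68% of all genes were lower without overlap, and nothing is read from this because the choice used it. The median log2 fold change over the 7 members tested whose contrast was not used was -0.80, beside -0.02 over all genes.

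In DNase against Ctr, 2 of the 8 members not chosen on that contrast were called higher, Msr1 and Adgre1, and none lower, beside 4.56% of 16100 genes called higher, 1.45% called lower and 6.01% called in either direction. With Marco and Cd5l the count was 4 of 10. The median over the 7 members tested and not chosen on it was 1.58, beside 0.0020 over all genes. In 4 of the 8 the groups did not overlap and DNase was higher, where 18.2% of all genes were higher without overlap. Both comparisons with Ctr share the same 3 control kidneys, so they are not independent of each other.

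The members were also read relative to 12 genes of the macrophage and monocyte lineage that are not members (Csf1r, Cd68, Aif1, Fcgr1, Itgam, Lyz2, Tyrobp, Cybb, Ctss, Cd14, Mpeg1 and Laptm5). Their summed level was 183 to 261 CPM in Ctr, 1216 to 2457 CPM in Lpr and 951 to 1723 CPM in DNase. All 12 were higher in Lpr and in DNase than in Ctr, with 10 of them called in each, and none was called between DNase and Lpr. The mean log2 CPM of the list differed by 2.91 between Lpr and Ctr, by 2.60 between DNase and Ctr and by -0.31 between DNase and Lpr.

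On this relative scale the direction of part of the members turned around. The list itself rose by 2.91 in Lpr and by 2.60 in DNase against Ctr, so any gene with unchanged log2 CPM would fall by as much here. The share of all genes without overlap on this scale was not computed, and the choice looked at the Lpr and DNase kidneys of F13a1 and Clec10a. Adgre1 differed by 0.20 and Mrc1 by -0.11 between Lpr and Ctr, so both moved by about as much as the lineage list. Msr1 rose above it by 1.58 with no overlap between the groups. F13a1, which was higher in Lpr on the CPM scale, was lower by a mean log2 difference of -1.86 relative to the lineage, and its Lpr kidneys lay between -4.18 and -2.01 against -1.97 to -0.89 in Ctr, without overlap. Clec10a differed by -0.87, Timd4 by -0.96 and Cd163 by -2.51, each with overlap.

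Between DNase and Ctr, Cd163, F13a1 and Clec10a differed by -4.12, -3.57 and -2.13 relative to the lineage, each without overlap. In mean log2 CPM itself they differed by -1.53, -0.97 and 0.47, so the rise of the list by 2.60 makes up the rest. Vsig4 also did not overlap, at few counts. Adgre1 differed by 0.27 and Msr1 by 1.08 there. In DNase against Lpr, Cd163 differed by -1.62, Mrc1 by -0.51, Msr1 by -0.49, Vsig4 by -0.49, Timd4 by -0.04, Adgre1 by 0.07, Cd5l by 0.28 and Marco by 0.69 relative to the lineage, each with overlap. Clec10a differed by -1.26 without overlap and F13a1 by -1.71 with overlap through Lpr replicate 2, on the contrast both were chosen on. These values use a scale chosen for this description and carry no test.

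**Figure D3:**
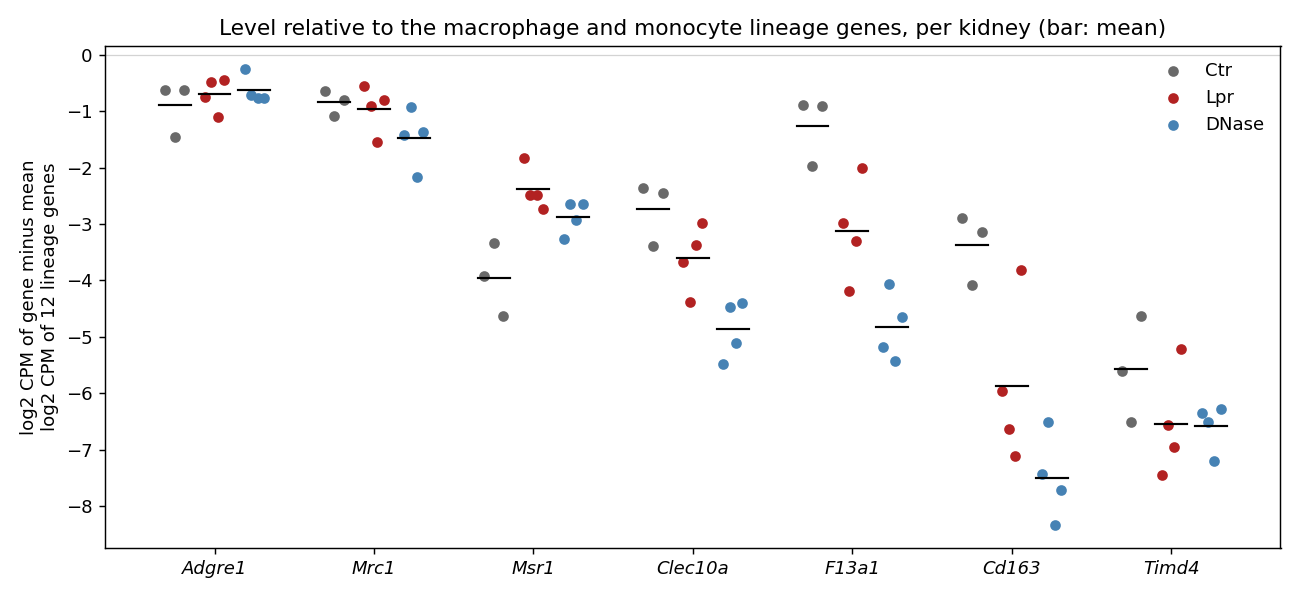
Log2 CPM of 7 members minus the mean log2 CPM of 12 lineage genes (vertical axis, log2 units) in each kidney of the 3 groups, with bars for group means. Adgre1 stayed near the lineage level in all groups, Msr1 was higher in the MRL/lpr kidneys, and F13a1 and Cd163 were lowest in DNase.

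Markers of other cell types moved with part of these genes. The 7 monocyte genes (Ly6c2, Ccr2, Plac8, Ms4a4c, Vcan, Cd177 and Fcnb) summed to 17.6 to 44.3 CPM in Ctr, 96.5 to 208 CPM in Lpr and 81.5 to 93.2 CPM in DNase, so that no DNase kidney reached the Lpr range, and Fcnb was at 0 counts in 7 kidneys. Of these genes, 3 of the 5 tested were called higher in Lpr against Ctr, and none of the 6 tested was called in DNase against Lpr, where 5 had a lower fitted value and the median log2 fold change was -0.60. Plac8, at 35.2 to 130 CPM in Lpr and 31.4 to 40.2 CPM in DNase, overlapped between these groups. So did Ly6c2, at 13.8 to 51.0 and 23.5 to 35.8 CPM, and Vcan. Ccr2, at 17.2 to 25.9 and 12.8 to 16.5 CPM, and Ms4a4c, at 3.37 to 4.67 and 1.03 to 2.93 CPM, did not overlap. All 7 T cell genes were called higher in Lpr and in DNase against Ctr, at medians of 4.05 and 3.94, and summed to 5.32 to 7.58 CPM in Ctr, 79.7 to 167 CPM in Lpr and 79.2 to 129 CPM in DNase. The 4 leukocyte genes, all called higher against Ctr as well, summed to 29.7 to 45.1, 197 to 335 and 163 to 305 CPM in the same order, and the 8 neutrophil genes, with 3 of 5 called higher in each, to 2.28 to 6.50, 15.97 to 44.7 and 14.5 to 26.9 CPM. Ly6g, the defining neutrophil marker, had at most 3 counts in any kidney and was thus at the floor in every group. It was at 0 counts in all Ctr kidneys, Lpr replicate 4 and DNase replicate 1. B cell genes went the other way between DNase and Lpr: all 6 tested had a higher fitted value in DNase, at a median log2 fold change of 0.99. Of the 7 dendritic cell genes tested there, 4 had a higher and 3 a lower fitted value, at a median of 0.0058. None of either list was called in that comparison. The part of monocytes, T cells and other leukocytes in the members' levels was not tested.

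The 8 adipocyte genes (Adipoq, Plin1, Cidec, Lep, Retn, Cfd, Adrb3 and Lipe) summed to 433, 53.7 and 943 CPM in Ctr, 41.5, 45.7, 1081 and 634 CPM in Lpr, and 27.1, 240, 38.8 and 121 CPM in DNase. All 7 that could be tested in DNase against Lpr were lower with a median log2 fold change of -2.04, and none was called. Adipoq, the defining marker among them, had 0.279 CPM at its lowest and 73.5 CPM at its highest, and Lep was at 0 counts in Lpr replicates 1 and 2 and DNase replicates 1 and 3.

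With the log2 adipocyte sum as a covariate, a setting added after the data were seen, the log2 fold change of DNase against Lpr was -2.08 for Cd163 and, as descriptions of the contrast they were chosen on, -1.82 for F13a1 and -1.34 for Clec10a. The same covariate in DNase against Ctr brought F13a1 from -1.03 to -0.22 and Cd163 from -1.72 to -0.89, and Mrc1 and Timd4 were then called at 2.43 and 2.48. The 7 skeletal muscle genes summed to 20.7 to 45.9 CPM in Ctr, 13.6 to 19.1 CPM in Lpr and 3.51 to 10.8 CPM in DNase, and 5 of them were called lower in DNase against Ctr. The 8 genes of connective tissue fibroblasts summed to 268 to 339 CPM in Ctr, 285 to 469 CPM in Lpr and 236 to 392 CPM in DNase, and all were lower in DNase than in Lpr without a call. The part of adipose tissue, muscle and connective tissue in the levels of F13a1, Clec10a and Cd163 was not tested.

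**Figure D4:**
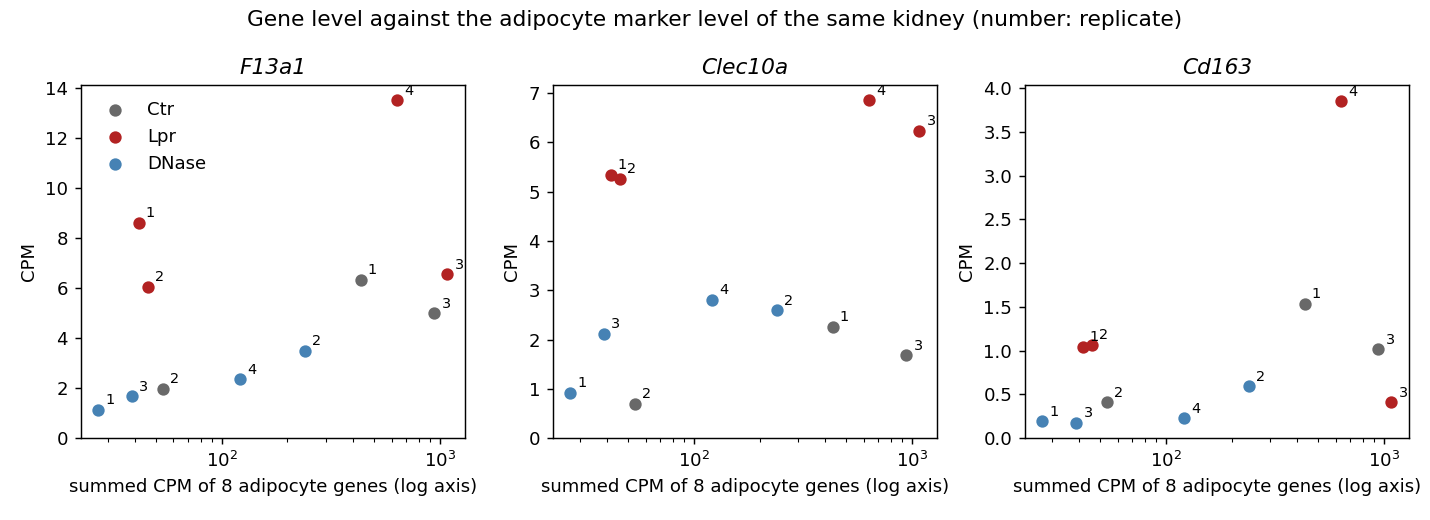
CPM of F13a1, Clec10a and Cd163 (vertical axes) against the summed CPM of 8 adipocyte genes (log horizontal axis) in the 11 kidneys, each point labelled with its replicate number and coloured by group. The adipocyte sum ranged from 27.1 to 1081 CPM and overlapped between the groups.

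The members differed in how they varied from kidney to kidney. Correlations of log2 CPM over the 8 MRL/lpr kidneys are given after the mean of each group was subtracted, as a description, since genes share the libraries and their depth. Vsig4 had only 1 to 26 counts in Lpr and 1 to 7 in DNase, and Cd163 had 7 to 22 in DNase, so their values of r rest on few reads. Over the 45 pairs r ranged from -0.73 to 0.95 with a median of 0.24. Among the pairs with high values, Cd163 and Vsig4 had r = 0.95, Cd5l and Adgre1 r = 0.88, F13a1 and Cd163 r = 0.78, F13a1 and Clec10a r = 0.76, and Msr1 and Mrc1 r = 0.67. Other pairs among the same genes had r = 0.64 between Cd163 and Timd4, 0.64 between Vsig4 and F13a1 and 0.61 between Mrc1 and Adgre1, whereas Clec10a had r = 0.30 with Cd163 and 0.055 with Vsig4. Without removing the group means the first 5 values were 0.88, 0.85, 0.90, 0.94 and 0.80, with Spearman's rho of 0.83, 0.88, 0.86, 0.95 and 0.57. Marco and Cd5l had r = -0.73 with group means removed. Without Lpr replicate 3 the value before removal went from -0.73 to -0.42. Leaving out that kidney also took the value before removal from 0.37 to 0.64 for Clec10a with Vsig4. For Clec10a with Cd163 it went from 0.74 to 0.85 and for Vsig4 with F13a1 from 0.63 to 0.83. Values with group means removed were not computed without that kidney.

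**Figure D5:**
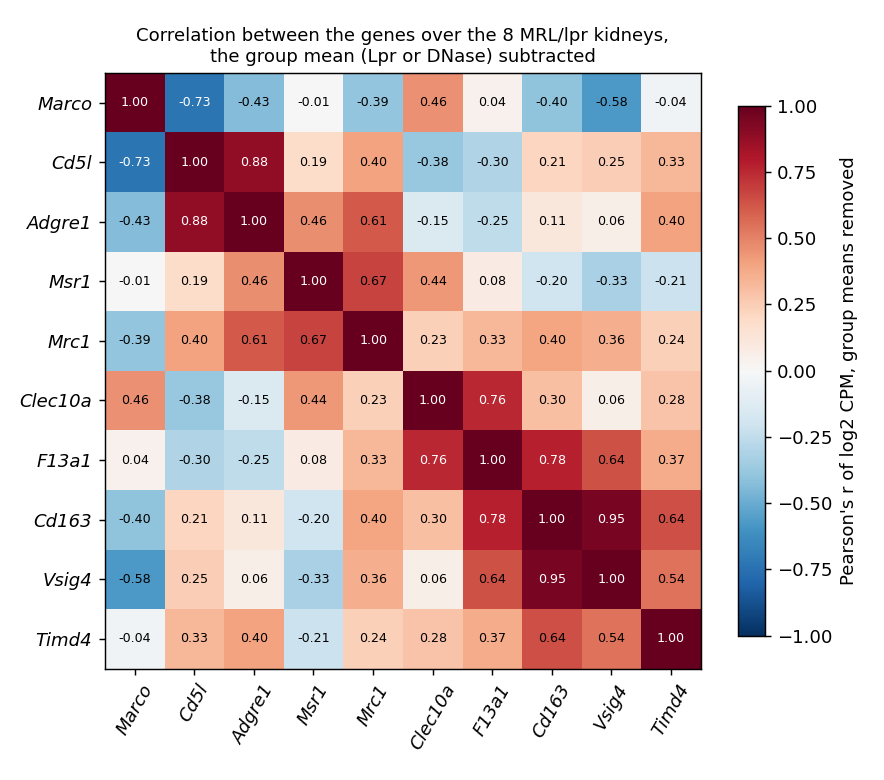
Pearson's r (colour, from -1 to 1, printed in each cell) between the 10 genes over 8 MRL/lpr kidneys, computed from log2 CPM with the mean of Lpr or DNase subtracted. The highest values joined Cd163 with Vsig4 at 0.95, where Vsig4 was measured by few reads, and Cd5l with Adgre1 at 0.88. Marco and Cd5l had the lowest at -0.73.

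Likeness to 13188 other genes with at least 1 CPM on average in the 8 kidneys was read as r of log2 CPM without removing the group means. The difference between Lpr and DNase, on which F13a1 and Clec10a were chosen, thus enters these values. The gene most like F13a1 was Folr2, a folate receptor of resident macrophages, with r = 0.96, followed by Steap4 and Osgin2. Folr2 also was among the 3 most like Cd163 with r = 0.91, after Ubxn4 and Osgin2. The genes most like Msr1 were Nrros, a microglia and macrophage protein, with r = 0.98, H2-DMa of antigen presentation and the chemokine Ccl8. Cd5l was most like Cadm1, Arhgef1 and Slc16a5, Adgre1 most like Btnl2, Cyfip1 and Ppp1r18, and Mrc1 most like Tmem43, Slc39a14 and Slc30a1. The genes most like Clec10a were Ywhag, Usp39 and Itgb3, and those most like Timd4 were Exoc5, Itgbl1 and Pde3b. Marco was most like Pgm3, Atg12 and Mgmt, at r between 0.96 and 0.97. The highest r lay between 0.94 and 0.98 for all 9 members tested, and values of this size are taken from the top of many genes over few kidneys.

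Other genes of the same pathways were read from lists written by hand. These too were written with earlier results of these data known. Of 18 other tissue-residence genes tested, 6 were called higher in Lpr against Ctr and none lower, beside 4.65% and 1.13% of all genes, and the median log2 fold change was 0.90, beside 0.03. Spic, a factor of red pulp and other resident macrophages, had 1 count in each Ctr kidney, and was at least 16.4-fold higher in Lpr. Siglec1, a sialic acid receptor, rose by 4.00 (SE 0.955, adjusted p = 0.0312 from edgeR) and the complement genes C1qa and C1qc by 3.44 and 3.05 on the log2 scale. Siglec1 was at 19.3, 19.6 and 8.52 CPM in Lpr replicates 1, 2 and 4 and at 0.827 CPM in replicate 3, within reach of the Ctr kidneys at 0.510 to 1.02 CPM. The call of Siglec1 was lost when any of the 3 Ctr kidneys or Lpr replicate 1 or 2 was left out, with an adjusted p of at most 0.127 from edgeR, and without Lpr replicate 3 its log2 fold change was 4.39. In DNase against Ctr, 5 of 17 were called higher, beside 4.56% of all genes, and in all 8 had a higher and 9 a lower fitted value, at a median of -0.03. Among those called were Spic, again at least 14.0-fold higher, and C1qa, C1qc, Siglec1 and C1qb, which were 2.87, 2.64, 2.63 and 2.50 higher on the log2 scale. In DNase against Lpr none of 17 was called, and 15 had a lower fitted value. The smallest p among them belonged to Hmox1, which degrades heme (log2 fold change -1.15, adjusted p = 0.82 from edgeR, and -0.71 without Lpr replicate 3), and Lyve1, a hyaluronan receptor (-1.83, adjusted p = 0.82 from edgeR).

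Of 16 other scavenger receptors, only Cd68, a late endosome protein of macrophages that is also in the lineage list, was called higher in Lpr and in DNase against Ctr, by 2.85 and 2.74. The fitted value of DNase against Lpr was below 0 for all 16, at a median of -0.29, beside -0.02 for all genes, and none was called. Cxcl16, a chemokine that also takes up oxidized lipoprotein, had the smallest p there, with 181, 218, 199 and 123 CPM in Lpr and 114, 117, 126 and 134 CPM in DNase (log2 fold change -0.56, adjusted p = 0.82 from edgeR).

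Among 12 ligands and partners of the members, 1 was called higher in Lpr. It was Havcr1, the kidney injury molecule of tubule cells and a partner of the receptor family of Timd4, which rose by 7.25 in Lpr (SE 0.858, adjusted p = 0.0014 from edgeR) and by 5.87 in DNase (SE 0.603, adjusted p = 0.000142 from edgeR). Between DNase and Lpr its log2 fold change was -1.38, and -0.71 without Lpr replicate 3. That of Col1a1, a collagen chain and thus a ligand of Mrc1, was -0.58, and neither was called among the 11 tested.

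Of 9 growth factors, cytokines and receptors tested, 3 were called higher in Lpr against Ctr. They included Csf2rb and Il10ra, receptor chains for GM-CSF and interleukin 10, at 2.97 and 2.51. The other was the cytokine Il10, named after its values were seen, which had no count in Ctr and was at least 6.87-fold higher in Lpr at 0.610 ± 0.336 CPM (SD, n = 4). The same receptor chains were the 2 of 8 called in DNase against Ctr, at 2.62 and 2.20, the latter not without DNase replicate 3. None was called in DNase against Lpr, where all 9 had a lower fitted value and Il34 and Csf1, the ligands of the macrophage growth factor receptor, were at -0.80 and -0.38. Of 14 macrophage transcription factors, Spi1, which encodes PU.1, was called in Lpr at 2.57, and Spi1 and Irf4 were called in DNase at 2.38 and 2.53, against Ctr. Cebpb had the smallest p among the 14 in DNase against Lpr (log2 fold change -1.56, adjusted p = 0.82 from edgeR), at 49.5, 177, 144 and 38.1 CPM in Lpr and 30.7 to 36.7 CPM in DNase. Klf4 was next at -1.16, a value that rested on Lpr replicate 2: its CPM was 12.2, 60.4, 8.84 and 15.0 in Lpr and 10.0 to 11.3 in DNase, and without that kidney the log2 fold change was -0.17.

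Of 12 alternative activation genes tested in Lpr against Ctr, 4 were called, all higher. Il1rn, the interleukin 1 receptor antagonist, rose by 5.62, the lipid receptor Trem2 by 4.53, the ligand Pdcd1lg2 by 4.47 and the glycoprotein Gpnmb by 3.74. The call of Gpnmb was lost when any Ctr kidney was left out, and that of Pdcd1lg2 without Ctr replicate 2. Against Ctr, 5 of 10 were called higher in DNase, of which Il1rn at 5.04, Pdcd1lg2 at 4.80, Trem2 at 4.25 and Arg1 at 4.20 had the largest fold changes and Gpnmb was at 3.37. The lectin Cd209a was the 1 called lower there, at -3.36. Arg1 was uneven, at 0.363, 3.31, 3.38 and 3.76 CPM in DNase, where replicate 1 lay close to Ctr replicate 1 at 0.297 CPM. In Lpr Arg1 ran from 0 to 7.41 CPM. In DNase against Lpr none of 9 was called, and Mgl2 and Retnla had the smallest p, at -2.51 and -1.23, which became -1.20 and -0.69 without Lpr replicate 1.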

How the data were processed

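Gene counts of kidney RNA from 3 Ctr, 4 Lpr and 4 DNase mice were used. The authors deposited unnormalized whole-number counts of paired-end reads of 100 bp, and the study names HTSeq for them. FPKM values, as deposited by the authors, divide the same counts by gene length and library total. The submitters' processing notes name mm10, and no annotation or strand setting is given in the sources used here. All columns were used (0 unused).

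Pairs of groups were compared in edgeR 4.0.16 (R 4.3.3): filterByExpr, TMM, the quasi-likelihood test and Benjamini-Hochberg adjustment over all genes tested. Calls needed an adjusted p under 0.05 with a log2 fold change past 2 in either direction. A prior count of 2 entered log2 CPM. DESeq2 1.42.0, the tool of the study, and limma 3.58.1 on log2(FPKM + 1) or log2(FPKM + 0.1), limited to a mean FPKM of 0.5 or more, were alternatives, as were other scaling factors, no filter, a length offset, a robust fit, all groups in 1 fit, a replicate block, no fold threshold, and leaving out each library. DESeq2 without the fold threshold and the adipocyte covariate were added after the data were seen. On simulated data with 200 genes changed by a log2 fold change of 3, edgeR recovered 196 of them with 5 false calls for Lpr against Ctr (15824 genes), 197 with 1 for DNase against Lpr (15642 genes) and 200 with 2 for DNase against Ctr (15908 genes). Smaller changes, changed genes at very low levels and a length slope like that of Lpr replicate 3 were not simulated. The recovery therefore does not give the power for the members' changes in DNase against Lpr.

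The members and the lists were chosen with earlier results of these data known. A gene of the monocyte list is not reported here and was left out of its sums and counts. Every member was named. From each other list, up to 4 called genes with at least 1 CPM in the higher group were named by fold change, and where none was called up to 2 by p. C1qb and Gpnmb in DNase against Ctr, Mgl2 beside Clec10a, and Il10 were named after their values were seen. The 3 most correlated genes were named for each member tested. Positions and upstream sequences are from GRCm38.p6 (GENCODE and RefSeq), with windows found for 7 of the 10 members. Near copies were sought with blastn 2.17.0+ at 95% identity over 100 bases, and none was found. The alignment with Mgl2 lies under that limit. Replicates are separate mice. Counts of the same gene in a pair of same-group mice differed by more than sampling gives (chi-square over its degrees of freedom, 17.5 to 393), so no library was a repeat of another, and the spread between mice more than the depth limits precision.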

Additional observations from a re-analysis of the deposited data

Results flagged for a closer look

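In groups of 4 kidneys, a kidney far from the others was sought for each member, and chance gives about 1 in 20 groups. Of 20 groups examined, 4 held one. Marco was at 20.3 CPM in Lpr replicate 3, where the other Lpr kidneys were at 0.594 to 1.67 CPM. Msr1 was at 4.46 CPM in DNase replicate 1, below 9.37 to 9.76 CPM in the other DNase kidneys. Cd163 was at 0.596 CPM in DNase replicate 2, above 0.177 to 0.232 CPM in the others. Adgre1 was at 44.0 CPM in DNase replicate 3, above 35.5 to 36.6 CPM in the others.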

How the results depend on the processing

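Genes called in Lpr against Ctr numbered 929, and 1639 with no fold threshold, 213 with log2(FPKM + 1), 565 with log2(FPKM + 0.1), 2460 with DESeq2 and no fold threshold, and 663 to 969 with a library left out. In DNase against Ctr the 967 became 3493, 190, 549, 4113 and 869 to 1042 in the same order. In DNase against Lpr the 0 of edgeR, beside 886 genes at an unadjusted p under 0.05, became 4 with DESeq2 and 23 with DESeq2 and no fold threshold. Members called numbered 5, 0 and 4 in these comparisons in the order Lpr against Ctr, DNase against Lpr and DNase against Ctr. With log2(FPKM + 1), which shrinks low genes by construction and leaves out those under the FPKM minimum, they were 2 in Lpr against Ctr and 1 in DNase against Ctr. DESeq2 called 1 in DNase against Lpr, F13a1, and 2 with no fold threshold, F13a1 and Clec10a, both of which were chosen on that contrast, so nothing is read from these counts. Leaving out a library gave 4 to 5 members in both comparisons with Ctr and 0 in DNase against Lpr.

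Some log2 fold changes that were not called changed sign. Cd163 in Lpr against Ctr (0.69) was -0.18 with the replicate block and -0.22 (without Lpr replicate 4) to 1.15 (without Ctr replicate 1) with a library left out. In DNase against Lpr, Marco (-0.80) was 0.55 with the replicate block, 0.063 with log2(FPKM + 1), 0.37 with log2(FPKM + 0.1), 0.96 with the adipocyte covariate and, with a library left out, -1.17 (without Lpr replicate 1) to 1.50 (without Lpr replicate 3). Cd5l (-0.09) was 0.015 with log2(FPKM + 0.1), 0.00081 without DNase replicate 2 and -0.30 to 0.16 over all leave-outs, the latter without Lpr replicate 2. Adgre1 (-0.33) ranged from -0.50 to 0.023, the latter without Lpr replicate 2. Apart from the leave-outs, the cause was not tested. Kidneys of different groups share only a replicate number: their deviations correlated at -0.34 to 0.21, so the numbers do not pair them, and with the replicate block 892, 0 and 849 genes and 5, 0 and 4 members were called. Depth limits Timd4 and Vsig4, and Marco and Cd5l in Ctr.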
